A study of Homo sapiens with 6 samples.

Results

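The MYC, MAX and MXD network was followed here through 10 genes, MYCN, MYC, MAX, MLX, MGA, MNT, MXD1, MXD3, MXD4 and MXI1, chosen by gene symbol in the guide RNA (gRNA) tables of a genome-wide knockout screen. Each gene was targeted by 4 gRNAs, so the network was read by 40 of the 77441 gRNAs, and by 10 of the 19364 genes, in the Brunello library. The screen used IMR32, a human neuroblastoma (NB) cell line with MYCN amplification. In all 3 conditions the cells expressed Cas9 and carried the library. They were cultured alone, with CD14-depleted fresh lymphocytes from human blood, or with such lymphocytes and nivolumab, a therapeutic PD-1 blocking antibody, at a dose of 10 µg/ml. By the labels adherent cancer cells were harvested on day 5, and each condition had 2 libraries, numbered 1 and 2. The number stands for a screen, and the study ran its screens with different lymphocyte donors and at different ratios of effector to target cells (E:T). Transduction in duplicate is stated. The p-values below come from linear models (limma) with the screen as a block. They set a difference between conditions against its variation between 2 screens of 1 cell line. That variation was estimated with information shared over all genes or all gRNAs. The values count gRNAs in genomic DNA, so the identity of the cells could not be checked against marker genes.

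MYC proteins are transcription factors that bind DNA only as dimers with MAX. MYC and MYCN activate genes of growth, ribosome production and nucleotide synthesis, and MYCN amplification marks high-risk NB. MAX also pairs with the repressors MXD1, MXI1, MXD3, MXD4, MNT and MGA, which compete with MYC for the same partner and the same DNA motif, the E-box. MLX is a related partner that joins MNT, MXD1 and MXD4 and the nutrient-sensing factors MLXIP and MLXIPL. In a pooled knockout screen, a gRNA against a gene that cells need for growth becomes rarer among the survivors.

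Abundance was expressed as a level, the log2 of the normalized reads of a gRNA (plus 1) minus the median over 1496 gRNAs against 374 olfactory receptor genes in the same library. Olfactory receptors act in sensory neurons of the nose, and their gRNAs served as the neutral reference, with a median of 984 to 995 normalized reads per library. A level of 0 therefore means the abundance of a typical neutral gRNA. Every value in a library was a whole multiple of 1 step. Taking the step as 1 read, which the files do not state, gave a depth of 58554842 to 79924251 reads per library. On that reading member gRNAs had 99 to 1950 reads, for which counting alone gives an error of 10.1% to 2.26%, and 0 of the 40 had a mean under the minimum of 50 normalized reads. No library from the plasmid pool or from an early time point was used here, so the share a gRNA had at the start and its change during growth cannot be told apart in a level.

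In IMR32 cells alone, MYCN, MAX, MLX and MNT gRNAs were scarce. The median MYCN gRNA stood at 35.0% of the olfactory receptor median, MAX at 36.4%, MLX at 37.2% and MNT at 52.5% (means of 2 libraries on the log2 scale). These 4 of 10 genes, and none of the other 6, were low, meaning that the gene median lay under the 5th percentile of the olfactory receptor genes in both libraries of IMR32 alone. By the same rule 13.4% of all genes were low. With the 1st percentile as the bound MYCN alone of the 10 was low, beside 1.72% of all genes, and MAX, MLX and MNT were not. With the 10th percentile the same 4 genes were low, beside 22.3% of all genes. The members high by the matching 95th percentile rule numbered 0 of 10, against 1.20% of all genes. The median level over the 10 genes was -0.58, against -0.21 over all genes. This is a description of abundance and carries no test.

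**Figure D1:**
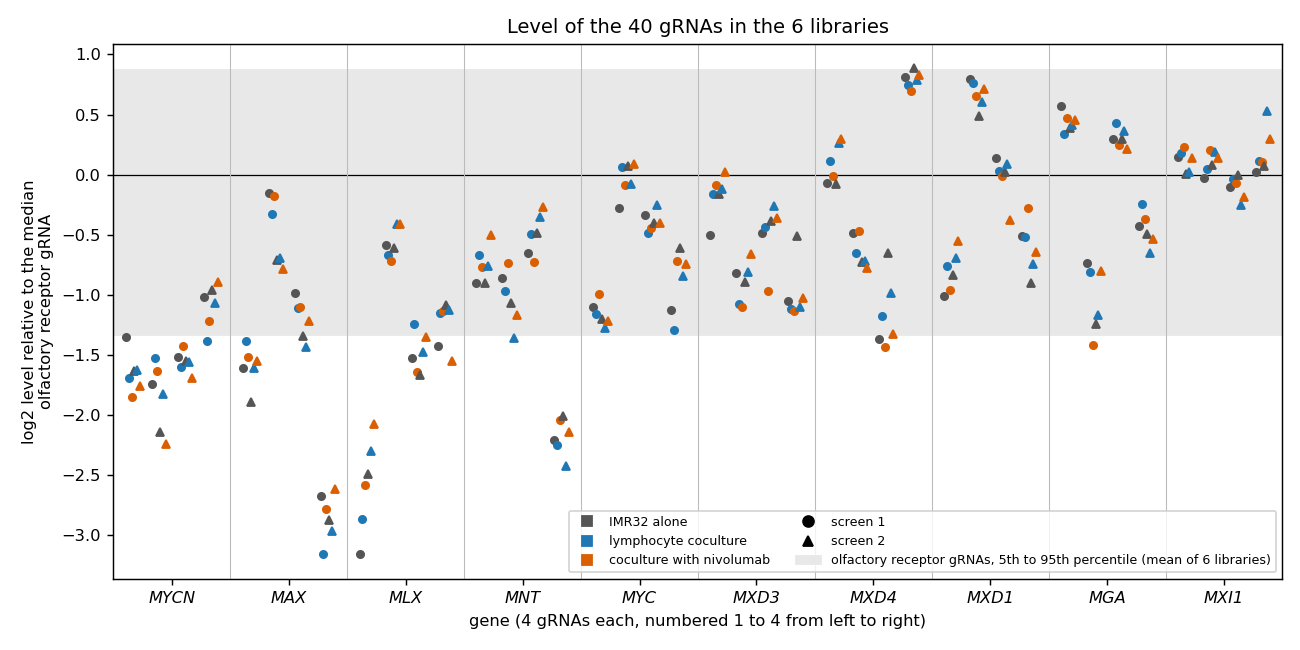
Level of each of the 40 gRNAs (y axis, log2 relative to the median olfactory receptor gRNA) in each of the 6 libraries, with genes ordered along the x axis by their level in IMR32 alone. Colours are conditions, symbols are screens, and the grey band is the 5th to 95th percentile of olfactory receptor gRNAs. The points of MYCN, MAX, MLX and MNT all lie below 0, while those of MXI1 lie around it.

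MYCN is the amplified member of the MYC family in this line and lies on the short arm of chromosome 2 (chr2:15940550-15947007, plus strand, GRCh38). Its gene level was -1.43 and -1.59 in the libraries of IMR32 alone, -1.56 and -1.59 in coculture, and -1.53 and -1.73 in coculture with nivolumab (screens 1 and 2). The 3 conditions overlapped in level, and MYCN ranked 351 from the lowest of the 19364 genes in IMR32 alone. Of the 374 olfactory receptor genes, 3 had a lower level in IMR32 alone.

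The 4 MYCN gRNAs were all scarce. MYCN_2 was the rarest in IMR32 alone, with 295 and 223 normalized reads in IMR32 alone, 345 and 277 in coculture, and 318 and 208.5 with nivolumab. MYCN_1 had 387 and 316 normalized reads in IMR32 alone, 308 and 318 in coculture, and 274 and 291 with nivolumab. MYCN_3 had 345 and 337, then 327 and 333, then 368 and 304 in the same order. MYCN_4 was the most abundant in every library, with 489 and 505, then 379.9 and 468, then 425.5 and 533 normalized reads. Levels in IMR32 alone spanned -1.94 to -0.99 over the 4 gRNAs, and 3 of them lay under the 5th percentile of olfactory receptor gRNAs in both libraries. Over the whole network 8 of 40 gRNAs did so, against 7.88% of all gRNAs.

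MYC, the paralogue on chromosome 8, was less scarce than MYCN. Its gene level was -0.72 and -0.51 in IMR32 alone, -0.82 and -0.55 in coculture, and -0.58 and -0.58 with nivolumab, or 65.4% of the olfactory receptor median in IMR32 alone. The lowest MYC gene level of the 6 libraries was -0.82 and the highest MYCN gene level was -1.43, so the gene levels did not overlap. Single gRNAs did, as MYC_1 (462 and 428 normalized reads in IMR32 alone) was rarer there than MYCN_4 (489 and 505). MYC_2 was close to the neutral reference, with 817 and 1038 normalized reads in IMR32 alone, 1037 and 929 in coculture, and 929 and 1048 with nivolumab. MYC_1, with 406 to 495 normalized reads over the 6 libraries, was below the olfactory receptor median in each of them. MYCL, the third paralogue, was low like MYCN and unlike MYC, at -1.04, with 11 of the olfactory receptor genes below it. MYCL was named after its values were seen.

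MAX, the partner that MYC proteins and their repressors share, had a gene level of -1.30 and -1.62 in IMR32 alone, -1.25 and -1.52 in coculture, and -1.31 and -1.38 with nivolumab. All libraries of screen 2 were below all libraries of screen 1. MAX lies on the minus strand of chromosome 14 (chr14:65006174-65102695, GRCh38). Its gRNAs were far apart from each other. MAX_4 had 154 and 134 normalized reads in IMR32 alone, 111 and 125.5 in coculture, and 143 and 160.1 with nivolumab, a mean level of -2.77 in IMR32 alone. MAX_2 had 891 and 601 normalized reads in IMR32 alone, 794 and 608 in coculture, and 872 and 574 with nivolumab, a level of -0.43. MAX_1 and MAX_3 lay between, with 264 to 379.9 and 363 to 499 normalized reads over the 6 libraries.

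MLX, the partner of the parallel branch, had a gene level of -1.48 and -1.38 in IMR32 alone, -1.20 and -1.30 in coculture, and -1.39 and -1.45 with nivolumab. It is encoded on the plus strand of chromosome 17 (chr17:42567072-42573239, GRCh38). MLX_1 was the rarest MLX gRNA in each library, with 109.9 and 175 normalized reads in IMR32 alone, 136 and 199 in coculture, and 164 and 234 with nivolumab. In each screen its value was lowest in IMR32 alone and highest with nivolumab. MLX_2 was the most abundant of the 4, with 599 to 744 normalized reads over the 6 libraries. Of the other MLX-binding genes, MLXIP had a level of -0.25 and MLXIPL of -0.56, and neither was low.

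MNT and MGA are the large repressors that bind MAX outside the MXD group. MNT had a gene level of -0.88 and -0.98 in IMR32 alone, -0.82 and -1.06 in coculture, and -0.75 and -0.83 with nivolumab. It lies on the minus strand of chromosome 17 (chr17:2384073-2401104, GRCh38). MNT_4 was far rarer than the other 3, with 213 and 245 normalized reads in IMR32 alone, 209 and 182 in coculture, and 239 and 223 with nivolumab. The other MNT gRNAs had 382 to 817 normalized reads, and all 4 were under the olfactory receptor median in each library.

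MGA, which also recruits a Polycomb complex, stood close to the neutral reference. Its gene level was -0.06 and -0.10 in IMR32 alone, 0.05 and -0.14 in coculture, and -0.06 and -0.16 with nivolumab, or 94.5% of the olfactory receptor median in IMR32 alone. MGA_1 and MGA_3 were above the neutral median in all 6 libraries, with 1142 to 1469 normalized reads, and MGA_2 and MGA_4 were below it with 369.6 to 840.4. The MGA gene level thus averaged gRNAs on both sides of 0.

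The MXD repressors, which recruit the SIN3 corepressor, covered a wide range without any being low. MXD3 had a gene level of -0.66 and -0.45 in IMR32 alone, -0.76 and -0.53 in coculture, and -1.04 and -0.51 with nivolumab. The value of -1.04 stood apart from the other 5, and MXD3 had the largest SD over the 6 libraries of the 10 genes, 0.22. MXD4 had a level of -0.28 and -0.37 in IMR32 alone, -0.27 and -0.23 in coculture, and -0.24 and -0.24 with nivolumab. Its SD over the 6 libraries was the smallest, 0.05, but its gRNAs were far apart. In IMR32 alone they ran from -1.01 for MXD4_3 to 0.85 for MXD4_4, an SD of 0.80 between gRNAs.

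MXD1 had a level of -0.18 and -0.41 in IMR32 alone, -0.24 and -0.30 in coculture, and -0.14 and -0.46 with nivolumab. Its gRNAs ranged from MXD1_1, with 492 to 675 normalized reads, to MXD1_2, with 1379 to 1714. MXI1, the remaining MXD family member, was the nearest to neutral, at -0.01 and 0.04 in IMR32 alone, 0.08 and 0.11 in coculture, and 0.15 and 0.14 with nivolumab. Its 4 gRNAs spanned only -0.05 to 0.07 in IMR32 alone, an SD of 0.05 between gRNAs, against 0.99 for MAX and 0.93 for MLX.

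Ordered from the lowest level in IMR32 alone, the genes were MYCN, MAX, MLX, MNT, MYC, MXD3, MXD4, MXD1, MGA and MXI1. Neighbours in this order overlapped in their ranges over the 6 libraries, apart from MLX and MNT and from MXD3 and MXD4. MYCN, MAX and MLX could thus not be ranked among themselves beyond the spread between libraries. Counts of olfactory receptor genes with a lower level were 3 for each of those genes, 13 for MNT, 27 for MYC, 31 for MXD3, 76 for MXD4, 83 for MXD1, 153 for MGA and 203 for MXI1.

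**Figure D2:**
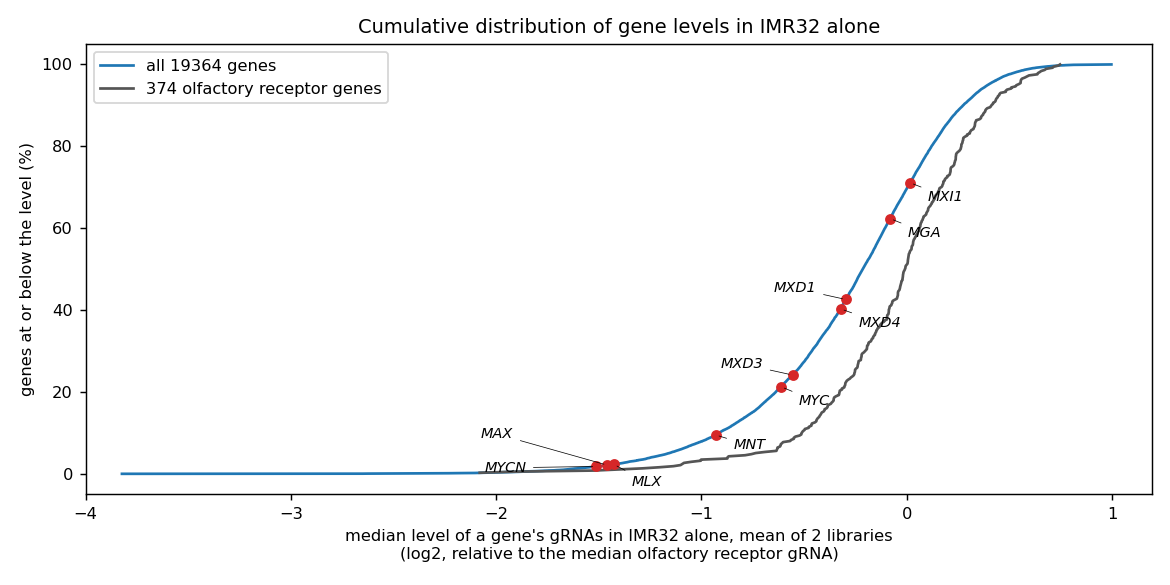
Cumulative share of genes (y axis, percent) at or below a gene level in IMR32 alone (x axis, log2 relative to the median olfactory receptor gRNA, mean of 2 libraries) for all 19364 genes and for 374 olfactory receptor genes. Red points place the 10 network genes on the curve of all genes. MYCN, MAX and MLX sit at its lower end, MNT follows, and MXI1 lies at 0.02.

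Of the 40 gRNAs, 28 lay below the olfactory receptor median in all 6 libraries, against 51.0% of all gRNAs, and 6 lay above it, against 26.5%. All 4 gRNAs did the former for MYCN, MAX, MLX and MNT, 3 for MYC and MXD3, 2 for MGA, MXD1 and MXD4, and 0 for MXI1. Levels differed far more between gRNAs than between libraries. Within a library the SD over the 40 gRNAs was 0.85, while the median SD of a gRNA over the 6 libraries was 0.17. Pearson's r between both libraries of IMR32 alone was 0.94 over the 40 gRNAs and also 0.94 over all gRNAs. The points of this correlation share the same starting pool design and library composition, and gRNAs are not replicates of a condition.

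The first comparison asked whether lymphocytes changed the abundance of network knockouts among surviving cells. No such change was detected. In limma, fitted over all genes with the screen as a block, 0 of 10 genes passed an adjusted p of 0.05 for coculture against IMR32 alone, and 0 of 10 had an unadjusted p under 0.05. In this comparison 0.00516% of all genes passed, which was 1 gene, YRDC, named after its values were seen. Over the 10 genes the log2 fold change ran from -0.06 for MYCN to 0.11 for MLX, with a median of 0.02 against -0.00029 over all genes. The lowest adjusted p of the 10 was 0.98.

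MYCN had a log2 fold change of -0.06 (SE 0.08, limma, adjusted p = 0.99) with 95% bounds of -0.22 and 0.10. It was -0.13 in screen 1 and 0.01 in screen 2. MLX had 0.11 (SE 0.07, adjusted p = 0.98) with bounds of -0.04 and 0.27, and it was 0.12 in screen 1 and 0.11 in screen 2. Values in the screens had opposite signs for 7 of the 10 genes, namely MYCN, MYC, MAX, MGA, MNT, MXD1 and MXD3. The share of all genes with opposite signs was not counted, so this cannot be read as a trait of the network. The bounds of all 10 genes together ran from -0.22 to 0.27, or from 14.0% less to 20.5% more of the gene value.

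Per gRNA, 0 of 40 passed in coculture against IMR32 alone, with 0 at an unadjusted p under 0.05. Of all gRNAs 0.00129% passed, which was H2AFY_4, higher in coculture with a log2 fold change of 4.22. Both screens gave the same sign for 24 of the 40 gRNAs, or 60% against 50.1% of all gRNAs. Among them 14 were higher and 10 lower in coculture.

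With nivolumab added, 0 of 10 genes passed against IMR32 alone in limma, with 0 at an unadjusted p under 0.05, and 0% of all genes passed. The log2 fold changes ran from -0.11 for MYCN to 0.15 for MNT, with a median of 0.02. MYCN had -0.11 (SE 0.08, limma, adjusted p = 0.94), with bounds of -0.27 and 0.05, and it was -0.09 in screen 1 and -0.13 in screen 2. MNT had 0.15 (SE 0.08, adjusted p = 0.94), with bounds of -0.02 and 0.31, and it was 0.15 in each screen. Of the 4 MNT gRNAs 1 was higher in both screens and 0 were lower in both. Their own log2 fold changes were 0.26, 0.01, 0.07 and 0.02 for MNT_1 to MNT_4. MXI1, the neutral member by level, had 0.11 (SE 0.07, adjusted p = 0.94), with values of 0.13 and 0.10 in the screens. For MAX, MGA, MXD1 and MXD3 the sign differed between screens, and the share of all genes that did so was not counted. This comparison shares its IMR32 libraries with the first.

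Among gRNAs, 0 of 40 passed with nivolumab against IMR32 alone, beside 0.00129% of all gRNAs. This was again H2AFY_4, higher with nivolumab with a log2 fold change of 3.17. At an unadjusted p under 0.05 there were 2, MLX_1 and MXD3_1, or 5% of the 40 against 4.86% of all gRNAs. MLX_1 had a log2 fold change of 0.50 (SE 0.12, limma, adjusted p = 0.97). For the other 3 MLX gRNAs the sign differed between screens, and the gene value of MLX was 0.08 (SE 0.07, limma, adjusted p = 0.96). Both screens had the same sign for 18 of the 40 gRNAs, or 45%, against 49.9% of all gRNAs.

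The comparison of coculture with and without nivolumab was the one on which the study centred. Here 0 of 10 network genes passed in limma, with 0 at an unadjusted p under 0.05, and 0% of all genes passed. The log2 fold changes ran from -0.11 for MXD4 to 0.14 for MNT, with a median of -0.03. MNT had 0.14 (SE 0.08, limma, adjusted p = 0.996), with bounds of -0.02 and 0.31, from 0.02 in screen 1 and 0.26 in screen 2. MXD4 had -0.11 (SE 0.07, adjusted p = 0.996), with bounds of -0.26 and 0.04, and was lower in both screens, by -0.09 and -0.13 on the log2 scale. MYCN had -0.05 (SE 0.08, adjusted p = 0.996), with bounds of -0.21 and 0.11, from 0.04 in screen 1 and -0.14 in screen 2.

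MAX had 0.07 (SE 0.08, limma, adjusted p = 0.996), with -0.04 in screen 1 and 0.19 in screen 2. The signs were opposite in the screens for MYCN, MAX, MLX, MGA and MXD3, again without a count over all genes. Over all 10 genes the bounds ran from 16.6% less to 23.8% more with nivolumab.

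Of the gRNAs, 0 of 40 passed with nivolumab against coculture, and 0% of all gRNAs passed. MAX_4 alone had an unadjusted p under 0.05 (2.5% of the 40, against 4.43% of all gRNAs), with a log2 fold change of 0.36 (limma, adjusted p = 0.999). The screens gave the same sign for 19 of the 40 gRNAs, or 47.5%, against 50.1% of all gRNAs.

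**Figure D3:**
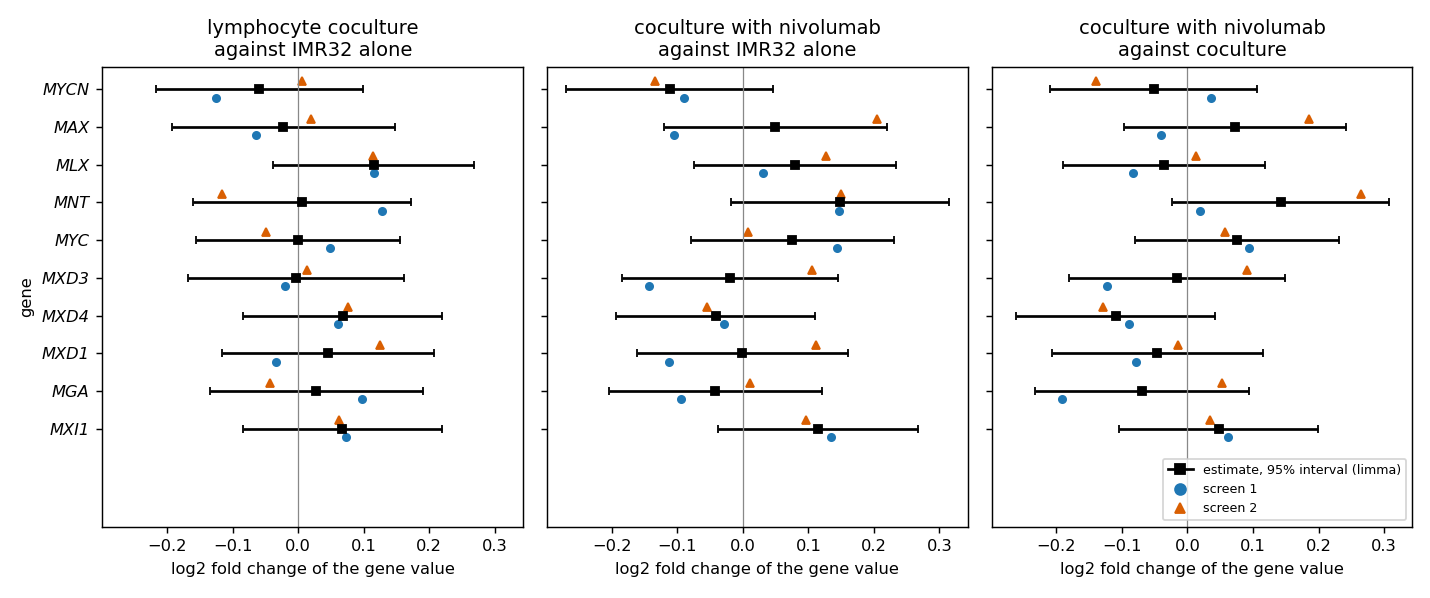
Log2 fold change of the gene value (x axis) of the 10 network genes (y axis) in the 3 comparisons, with the limma estimate and its 95% interval as squares and bars, and the value of each screen as a circle or triangle. All intervals include 0, and no estimate lies outside -0.11 to 0.15.

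**Figure D4:**
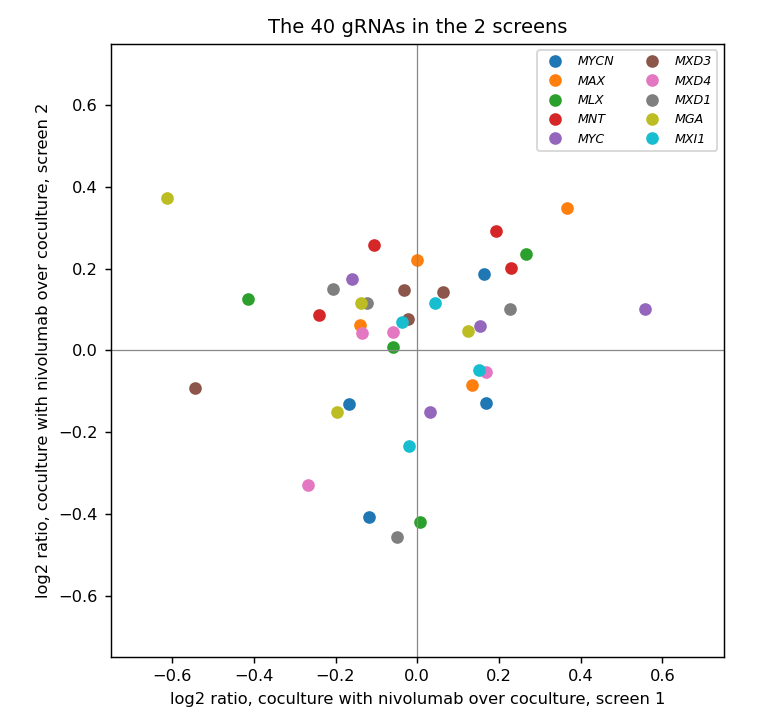
Log2 ratio of coculture with nivolumab over coculture for each of the 40 gRNAs in screen 1 (x axis) and screen 2 (y axis), coloured by gene. Of the 40 points, 12 are above 0 in both screens, 7 below 0 in both and 21 of mixed sign.

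Several members stood apart between the screens. MYCN, MAX, MGA and MXD1 were lower in all 3 libraries of screen 2 than in any of screen 1, which held for 16.0% of all genes. Their mean differences in level were -0.13, -0.22, -0.11 and -0.20. MYC and MXD3 were higher in all 3 libraries of screen 2, by 0.16 and 0.32, as were 14.1% of all genes. For some genes the screens nearly touched. The highest MYC level of screen 1 was -0.582 and the lowest of screen 2 was -0.576. The lowest level of screen 1 and the highest of screen 2 were -1.563 and -1.592 for MYCN, and -0.065 and -0.098 for MGA. MLX, MNT, MXD4 and MXI1 overlapped.

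Among gRNAs, 9 of 40 were lower in every library of screen 2, against 14.2% of all gRNAs, and 3 of 40 were higher, against 13.7%. MAX_2 differed by -0.51, MYCN_2 by -0.44 and MLX_1 by 0.58 on the log2 scale. The rule takes all 3 libraries of each screen, with IMR32 alone among them. Within the cocultures of a screen, donor, E:T ratio and replicate number go together and cannot be told apart, and no test was made.

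Genes that work with the network were read by the same rule from 6 lists. Of 13 MYC coactivators, among them histone acetylation and chromatin remodelling factors, 7 were low and 0 high, with a median level of -0.76. Of 12 MYC target genes 6 were low and 0 high, with a median of -0.69. CAD, an enzyme of pyrimidine synthesis, had the lowest level of the 6 lists, at -1.97. KAT5, an acetyltransferase of the NuA4 complex, stood at -1.59, the nucleolar proteins NPM1 at -1.37 and FBL at -1.30. Of 10 partners of the MXD, MNT and MGA repressors 0 were low, with a median of -0.26. These counts are to be read beside the 13.4% of all genes that were low and the median of -0.21 over all genes, and differences between lists were not tested.

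Of 10 genes of MYC protein stability 1 was low and 1 high, with a median of -0.14. The low gene was AURKA, a kinase that stabilizes MYCN, at -0.89 and named after its values were seen. The high gene was USP28, a deubiquitinase of MYC, at 0.72. Of 3 further family genes 1 was low, MYCL, and their median was -0.56. In limma 0 genes of any list passed in any of the 3 comparisons.

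Genes close to MYCN on chromosome 2 are often amplified together with it in NB, and copy number was not measured here. Of 5 genes listed around MYCN 2 were low. DDX1, an RNA helicase gene (chr2:15591178-15634346, GRCh38), had a level of -1.54 and -2.07 in IMR32 alone, -1.96 and -2.45 in coculture, and -1.77 and -2.02 with nivolumab. NBAS (chr2:15166916-15561340), which acts in retrograde vesicle transport, had -1.39 and -1.34, then -1.42 and -1.34, then -1.62 and -1.55. By mean level in IMR32 alone DDX1 (-1.81) lay below MYCN and NBAS (-1.36) above it. The neighbours VSNL1 and TRIB2 had levels of -0.13 and 0.36, and CYRIA, listed under an older symbol, had 0.46.

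In coculture against IMR32 alone DDX1 had a log2 fold change of -0.28 (SE 0.07, limma, adjusted p = 0.78), which did not pass over all genes. The part of position near MYCN in the level of MYCN gRNAs was not tested.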

How the data were processed

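Genomic DNA of harvested IMR32 cells was amplified for gRNA cassettes and sequenced. The deposited values are a signal, reads per gRNA that the authors scaled to the same total in each of 6 libraries. MAGeCK is named in the submitters' processing notes. The supplement also names a lineage dropout analysis with molecular identifiers (UMIs). The MAGeCK version, and whether reads of 1 UMI were collapsed in these values, are not given in the sources used here. The labels give a harvest on day 5, while the paper's results text gives 6 days of coculture. Every value was a whole multiple of 1 step per library, and total steps (58554842 to 79924251) were taken as depth, which assumes that 1 step is 1 read. Reads may not be independent molecules, so counting errors cover counting only.

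From this signal, log2(normalized reads + 1) was computed. Gene values for tests were medians over gRNAs, each centred on its mean over 6 libraries. Conditions were compared with limma 3.58.1 (R 4.3.3), over all 19364 genes or 77441 gRNAs, with the replicate number as a block, Benjamini-Hochberg adjustment and a threshold of 0.05. Adding 1 makes the fold changes of rare gRNAs slightly too small. The number marks a screen. Deviations of libraries with the same number correlated at 0.39, 0.40 and 0.40. Levels, summaries and figures used Python 3.11.15, numpy 2.4.6, pandas 2.3.3 and matplotlib 3.10.9. Positions are from GENCODE v44 on GRCh38.

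All 10 members were named, and of the 6 lists any gene that passed a test, the 6 lowest and 3 highest among those low or high, and all neighbours of MYCN. MYCL, MLXIP, MLXIPL and AURKA were named outside this rule. Only 1 gene was high, so 1 is named. Members and lists were chosen with earlier results of these data known. Alternatives were another pseudocount, a filter on low values, the mean over gRNAs, scaling to olfactory receptors, no block, and leaving out libraries or screens.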

Additional observations from a re-analysis of the deposited data

How the results depend on the processing

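Under every alternative that was run, 0 network genes and 0 gRNAs passed in any of the 3 comparisons (51 of 51 counts). That includes the fit with no replicate block, in which the pairing by screen was dropped and 0 were called in each comparison. Passing was also rare among all genes. In the main fit 1 gene passed in coculture against IMR32 alone, and 0 passed in the other comparisons. With the mean over gRNAs, 2 genes passed with nivolumab against IMR32 alone. Counts of 0 for so small a set therefore say little about the network. Of 150 tested fold changes under alternatives, 148 kept their direction, with a lowest adjusted p of 0.93 (limma) and values from -0.11 to 0.17. For 2 of the alternatives the direction was fixed in advance. Dropping the block cannot change a fold change in this balanced design, and the filter removed 0 member gRNAs. The count of 148 therefore overstates how far stability was tried. With the mean over gRNAs in place of the median, the log2 fold change of MNT in coculture against IMR32 alone turned to -0.023, and that of MXD1 with nivolumab against IMR32 alone to 0.045. In 1 screen alone, with no test, values ran from -0.19 to 0.26. A stricter bound for low genes, the 1st percentile of olfactory receptor genes, left 1 low gene, MYCN, in place of 4, and 1.72% of all genes in place of 13.4%. In screen 1 alone 6 were low, MYC and MXD3 being added, and the cause was not tested. That rule used 1 library in place of 2, and the share of all genes low by it was not counted. Fits that left out 1 library kept 1 library in a condition, which was assumed to vary like the others. Of the levels under alternatives 35 moved by less than the spread between libraries and 15 by more. That spread was the SD of the 2 libraries of IMR32 alone. Leaving out 1 screen cannot move their mean by more than this SD, so those levels were among the 35 in advance. Against the median of all gRNAs the level of MGA in IMR32 alone became 0.13, and the other levels stayed on their side of 0. A planned count test (edgeR) was not run, since 4 of the 6 libraries held too few low values to check that 1 step is 1 read. Over all network genes and comparisons, the lowest bound was 17.0% less, for MYCN, and the highest was 24.3% more, for MNT. Both came from nivolumab against IMR32 alone, and no single gene had an interval that wide. With 2 screens larger shifts of other genes also missed the adjusted threshold.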
